A study of Mus musculus with 4 samples.

Results

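The cells described here are the Pdgfra-positive, collagen-rich cells of the fracture callus, 219 of the 14451 callus cell barcodes that passed the quality limits and of the 23216 in the 4 libraries of the series. A barcode stands for 1 droplet and, where no doublet formed, 1 cell. A barcode of either callus library was a member when it had at least 500 UMIs (unique molecular identifiers, each marking 1 captured RNA molecule), at least 200 genes and at most 10% mitochondrial UMIs, when Col1a1, Col1a2 and Col3a1 together made up at least 2% of its UMIs, Col2a1 and Acan under 1%, Bglap and Bglap2 under 0.1% and Col10a1 under 0.5%, and when it had at least 1 UMI of Pdgfra. The members were thus selected on the measured UMIs of these genes, whose levels are given as a description only. The callus libraries came from male C57BL/6J mice of 20 weeks at week 2, 1 library from controls (control) and 1 from animals on the glucocorticoid prednisolone (GC), dosed at 6.25 mg/kg/d. No allele or transgene is named for these mice. The labels describe a subcutaneous slow-release pellet or a placebo for all samples, whereas the paper gives daily injection for its fracture model, and the number of mice pooled in a library is not given in the sources used here. With 1 library per group there was no replicate and no test between groups, and every interval in the text is a 95% interval that covers counting error only. The remaining libraries, from trabecular bone of control and GC mice at the same week, serve only to show how rare such cells were outside the callus.

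A fracture callus is built by mesenchymal progenitors from the periosteum and the surrounding tissue. They make a fibrous matrix of type I and type III collagen before they turn into cartilage or bone, with Sox9 as the main transcription factor of the cartilage path and Runx2 and Sp7 those of the bone path. Pdgfra, a receptor for platelet-derived growth factor, marks many stromal and progenitor cells of the skeleton. Glucocorticoids such as prednisolone bind the glucocorticoid receptor, a transcription factor of nearly every cell type that induces genes such as Sgk1, Fkbp5, Tsc22d3 and the metallothioneins and represses many chemokine genes.

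The control library gave 106 members, 1.49% of its 7133 barcodes past the quality limits (Clopper-Pearson interval 1.22% to 1.79%), and the GC library 113, 1.54% of 7318 (1.27% to 1.85%). The intervals overlapped over most of their width. Of the barcodes past the quality limits, 588 in control and 1741 in GC had the collagen share, and the limit on Col2a1 and Acan left 172 and 202 of them. The last step, the Pdgfra UMI, took 162 down to 106 in control and 190 down to 113 in GC. This step is loose, since 34 control and 43 GC members had exactly 1 Pdgfra UMI. The collagen share just inside its limit was 2.03% in control and 2.00% in GC, and just outside 1.92% and 1.94%. For Col2a1 and Acan the nearest members lay at 0.984% and 0.983%, and the nearest barcodes beyond the limit at 1.07% and 1.04%. The members were deep, with a median of 15064 UMIs and 3709 genes in control (1851 to 71415 UMIs) and of 14295 UMIs and 3617 genes in GC (1355 to 60508 UMIs), and held 2029277 and 1862820 UMIs in all. No member barcode of one callus library was found among the barcodes past the quality limits of the other, although 12 such barcodes were in both.

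The stromal label was borne out in part, and Dcn was only a little lower in callus chondrocytes, as given below. Dcn, a small proteoglycan that binds collagen fibrils, stood at 1596 CPM in the control cells (1541 to 1652) and at 1703 CPM in GC (1644 to 1763). CPM is the number of UMIs of a gene summed over the cells, divided by all their UMIs and multiplied by 1000000, with an exact Poisson interval in brackets. Postn, a matrix protein of the periosteum, stood at 816 (777 to 856) and 961 (917 to 1006). Prrx1, a transcription factor of limb mesenchyme, stood at 239 (219 to 262) and 146 (129 to 164), with a UMI in 77 of 106 and 73 of 113 members. Of the genes used by the rule, Col1a1 stood at 46998 and 57197, Col3a1 at 5657 and 4519 and Pdgfra at 184 and 157 CPM. To set these against free RNA, each barcode was thinned to 1000 UMIs and compared with callus B cells, which should lack stromal genes (median depth before thinning 2174 UMIs in control and 1982.5 in GC, against 15064 and 14295 in members). Dcn then had a UMI in 61.3% of control and 66.4% of GC members against 9.58% and 6.1% of B cells. Without thinning the shares of members were 98.1% and 95.6%. Postn reached 40.6% and 40.7% against 2.11% and 1.22%, and Prrx1 15.1% and 12.4% against 0.192% and 0 of 246 barcodes. Thinning made the number of UMIs equal but not the share of free RNA, which can differ between deep and shallow barcodes. The level in B cells is thus no measure of the free RNA in members.

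Genes of bone and cartilage that the rule did not restrict were also abundant in the summed members. Ibsp, which encodes bone sialoprotein of the mineralizing matrix, stood at 16936 CPM in control and 26556 in GC. It was found in 101 of 106 and 110 of 113 members, but very unevenly, with a median over barcodes of 3326 and 8649 and a highest barcode of 130063 and 211008. Summed Ibsp lay above summed Col3a1, a gene of the rule, in both libraries. The median over barcodes of Col3a1 was 3670 and 3160, in control above that of Ibsp. At equal depth Ibsp had a UMI in 66.0% and 75.2% of members against 33.9% and 38.2% of B cells. The part of free RNA in the members' Ibsp was not tested. Spp1, or osteopontin, stood at 8878 and 7387, Alpl, the phosphatase of mineralizing cells, at 902 and 1278, Runx2 at 285 and 217 and Sp7 at 147 and 101 CPM. Sox9 stood at 840 and 869, Comp, a cartilage and tendon matrix protein, at 2077 and 2295, and Col11a1, a minor collagen of cartilage fibrils, at 2287 and 2262. Sox9 had a UMI at equal depth in 40.6% and 42.5% of members against 11.5% and 6.91% of B cells. Col2a1 stood at 2483 and 1514 CPM in members and 13929 and 5699 in B cells, and Acan at 1340 and 1299 against 1978 and 1321. The rule capped both genes in members and not in B cells, so nothing is read from that order. Col11a1, which the rule did not use, stood in B cells at 2664 and 1289.

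**Figure D1:**
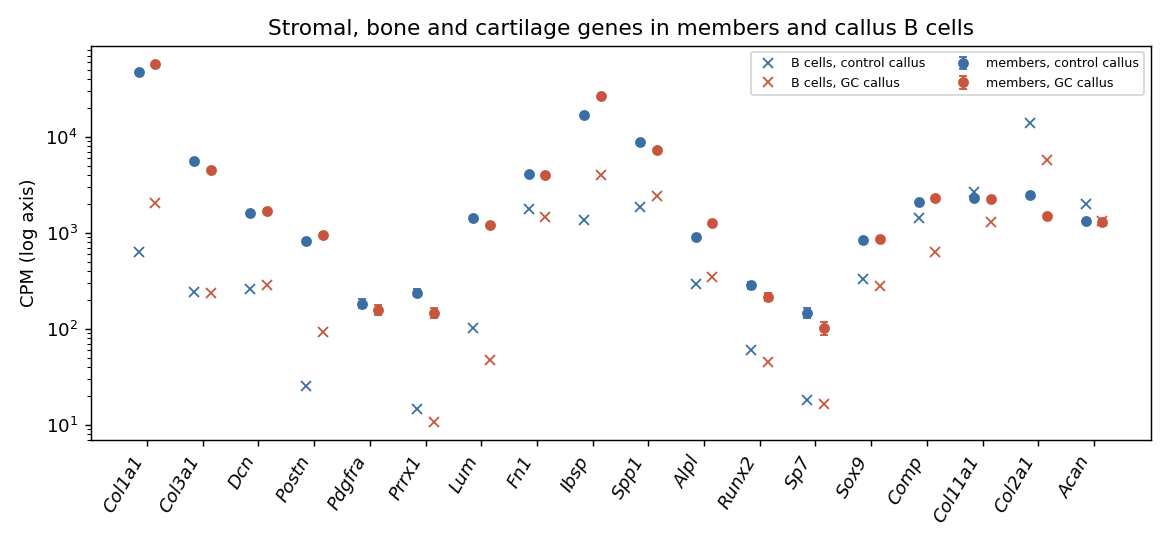
Summed level, in CPM on a log axis, of 18 stromal, bone and cartilage genes in members (points with 95% Poisson intervals, most smaller than the point) and in callus B cells (crosses), with control in blue and GC in red; Pdgfra has no cross because B cells were taken without a Pdgfra UMI. Dcn, Postn and Prrx1 lie far above the B cells. Col2a1 and Acan were capped by the rule in members only, so their order against B cells is not a result.

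Markers of other cell types were low with a few exceptions. Of 20 immune markers 7 reached 50 UMIs over both libraries, and none was at 0. Their sum was 460 CPM in control and 205 in GC, led by S100a8, and 63.9% of the control sum came from 1 barcode. Ptprc, the pan-leukocyte marker, had a UMI in 8 control and 10 GC members, and a UMI of Ptprc, Cd79a, Cd79b or Pecam1 was found in 16 and 24. The 10 endothelial markers summed to 42.9 and 44.6 CPM, with Eng as the most abundant and none at 0. Pericyte and smooth muscle markers summed to 539 and 457, led by Cspg4, which cartilage cells also express. Skeletal muscle markers summed to 4.44 and 9.66, with Des the most abundant and Myh1, Myh4, Pax7, Myod1 and Myf5 at 0. The 9 osteoclast markers summed to 562 and 449, led by Ctsk, with Dcstamp, Calcr and Oscar at 0. The 8 Schwann and nerve markers summed to 138 and 159, led by Ncam1, with Sox10 and Gfra3 among those at 0. Erythroid markers summed to 54.7 and 134, led by Hbb-bs, with Slc4a1 among those at 0. Osteoblast and osteocyte markers summed to 19335 and 28893, led by Ibsp, and chondrocyte markers to 7021 and 5034, led by Col2a1, with none of either list at 0. The part of any other cell type in the results that follow was not tested. No doublet caller was run, and whether the double presence of cartilage and bone genes came from single cells or from doublets was not tested.

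Barcodes that met every limit except the Pdgfra UMI, 56 in control and 77 in GC, resembled the members in Dcn, Prrx1, Ibsp and Sox9. They had Dcn at 1857 and 1792, Prrx1 at 303 and 117, Ibsp at 15356 and 21428 and Sox9 at 837 and 718 CPM. Col3a1 stood at 5846 and 5717 in these barcodes and is not compared, since the rule selected both sets on it. Callus chondrocytes (Col2a1 and Acan at least 2% of UMIs, Col10a1 under 0.5%; 1139 barcodes in control and 568 in GC) had Dcn at 1447 and 1397, Prrx1 at 84.6 and 75.9 and Sox9 at 1663 and 1233. Their Col3a1, at 2029 and 2175, is not compared, since members were selected on that gene. A further 18 stromal identity genes, led by Fn1, summed to 9091 and 8682 CPM in members and 7836 and 10342 in chondrocytes. That list did not set members apart from chondrocytes, and Dcn was only a little lower in chondrocytes than in members. Bone-forming barcodes (Bglap and Bglap2 at least 0.1%, with the same collagen and cartilage limits) were only 6 and 7, so their values rest on few cells. Their Col3a1 was 164 and 1614 and their Ibsp 4613 and 29187 CPM.

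Clustering divided the members into 5 groups, each found in both libraries, which differed in these programs. Group 2, with 73 barcodes (41 of 106 control and 32 of 113 GC members), had as leading genes Ccn3, Igf1, Col14a1, Sfrp2, Mfap5, Abi3bp, Angptl1, Igfbp5, Ogn and Cilp2. Igf1, a growth factor for bone and cartilage cells, stood there at 1082 CPM against 35.2 in the other members, and Ogn, a small proteoglycan, at 1461 against 103. Col3a1 (10164), Dcn (2542), Prrx1 (402) and Aspn (3120) were also highest in this group, and Ibsp lowest (1684). It carried 8 of 12 markers of the universal fibroblast list, 7 of 10 of the tendon list and 6 of 9 of the periosteal list at 2-fold over the other members, and so no single subset name was given. Group 3, with 25 barcodes (16 and 9), carried 7 of 12 osteoblast and osteocyte markers, among them Ibsp, Sp7 and Ifitm5, and 6 of 11 osteoprogenitor markers, among them Dlx5, Omd and Pth1r, and was left unnamed. Its leading genes included Ifitm5, an osteoblast membrane protein (1111 against 124), Ibsp (72849 against 13907) and Tmem119 (452 against 105). Prrx1 stood at 109 and Col3a1 at 1627 there.

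Group 1, the largest with 80 barcodes (35 and 45), was led by Ccl2, S100a9, S100a8, Hilpda, Cxcl2, Mir100hg, F13a1, Dmp1, Ank and Slc2a1. It carried 5 of 20 immune markers and 4 of 12 inflammatory fibroblast markers, 19 of its barcodes had a Ptprc, Cd79a, Cd79b or Pecam1 UMI, and it was left unnamed. Dmp1, a matrix protein of osteocytes, stood there at 829 CPM in 28 barcodes, and Sox9 at 1216, the highest of the groups. Group 4, with 23 barcodes (8 and 15), had Col1a1 at 104773 but Col3a1 at only 318 and Aspn at 0, and had among its leading genes Gm45509 and Ubash3a, each from 1 barcode, and Car3, Col22a1, Slc36a2, Cdk5r1, Bmp2, Hmox1 and Gm26917. Bmp2, a bone-inducing ligand, stood at 737 against 161. Group 5, with 18 barcodes (6 and 12), was led by Pcp4, Tspan2, Stk38l, Fam180a, Fgfr3, Hapln1, Sbsn, Mfge8, Ugp2 and Lbp. Comp (5762), Acan (3844) and Hapln1 (1383), which links aggrecan to hyaluronan, were highest there, and the group carried 3 of 10 chondroprogenitor and 4 of 10 tendon markers. Since the groups were cut from the same counts, these levels describe them and are no test. In control, groups 1 to 5 took 33.0%, 38.7%, 15.1%, 7.55% and 5.66% of members, and in GC 39.8%, 28.3%, 7.96%, 13.3% and 10.6%. For each group the Clopper-Pearson intervals of both libraries overlapped, for group 2 from 29.4% to 48.6% in control and from 20.2% to 37.6% in GC.

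**Figure D2:**
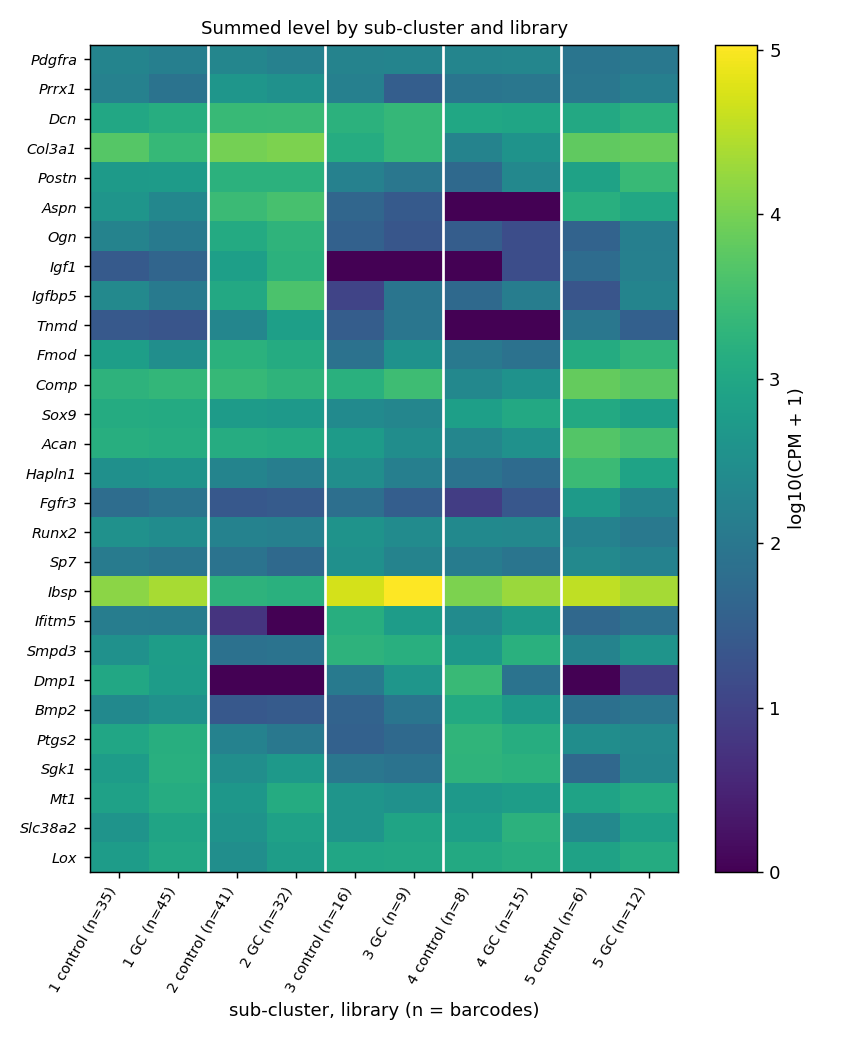
Summed level of 28 genes, as log10 of CPM plus 1, in each of the 5 groups (sub-clusters) of members and each library, with the number of barcodes in brackets. Group 2 has the highest Col3a1, Aspn, Ogn, Igf1 and Igfbp5 and the lowest Ibsp, and group 3 has the highest Ibsp.

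The question of the design is how callus cells of prednisolone-treated mice differ from controls. Over the members, 7175 genes had at least 50 UMIs in both libraries together. For each of them 5 CPM were added to both levels before the log2 ratio (GC to control) was taken. Its median was -0.04, and 41 genes were at least 2-fold higher and 63 at least 2-fold lower in GC, 0.571% and 0.878% of the genes tested. Of all genes tested, 44.8% were higher and 55.2% lower in GC by any amount. Past 2-fold is a rule of size and not a test. When the barcode with the most UMIs of a gene was left out of each library, a choice made after seeing the data, 28 of the 41 and 50 of the 63 stayed past 2-fold, so single barcodes decided the rest. Another weighting moved the split, to 68 higher and 67 lower with the mean over barcodes and to 81 and 81 with equal weight for the groups of cells that held at least 15 barcodes in each library. B cells had at least 20% of the members' level, in either library, for 32 of the 41 and 54 of the 63, beside 93.1% of all genes tested. Among those under that level, the higher genes were Igfbp5, Igf2, Tnmd, Vcan, Prg4, Lama2, St8sia2, Gm31048 and Gm45509. Prg4 was lower in GC with Col2a1 and Acan under 0.5%, and all UMIs of Gm45509 came from 1 barcode. The lower genes under that level were Dmp1, Id1, Angptl7, Foxs1, Dpt, Adamts18, Chst2, Kcne4 and Podnl1. This group of genes was picked out after the values were seen. B cells were shallower than members, so the 20% limit does not measure the free RNA in members.

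**Figure D3:**
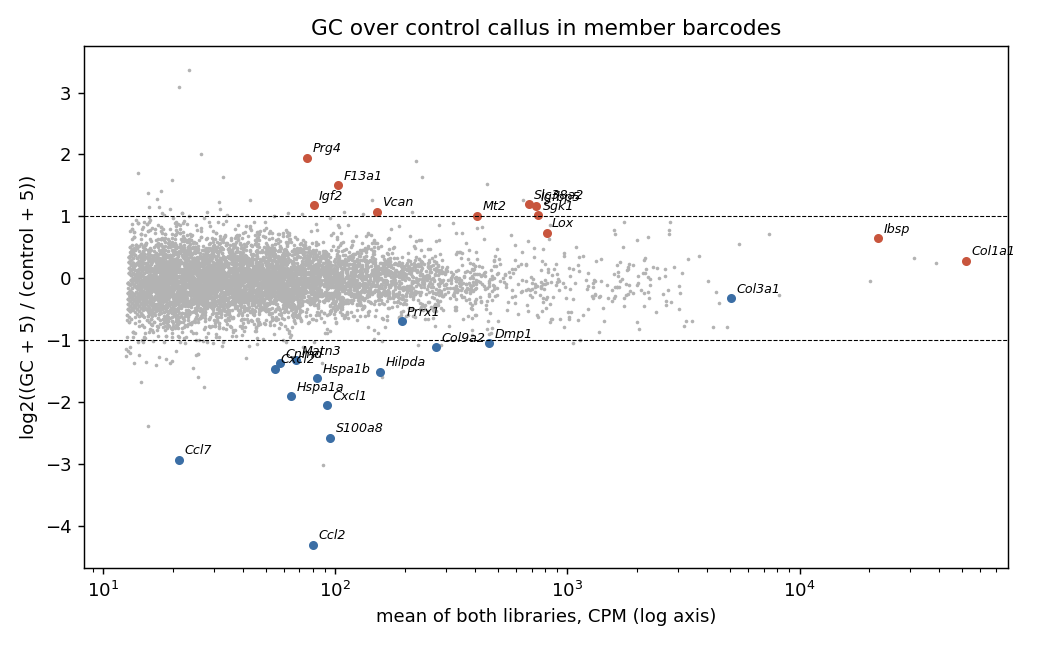
Log2 ratio of GC over control in members (vertical) against the mean level in CPM (horizontal, log axis) for the 7175 genes tested, with the 2-fold limits dashed and 25 genes named. Most genes lie between the dashed lines, Ccl2 lies lowest at -4.30, and Sgk1, Mt2, Slc38a2 and Igfbp5 lie just above the upper limit.

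Of 32 genes listed as glucocorticoid receptor targets, 26 had enough UMIs, of which 2 were at least 2-fold higher in GC, 0 at least 2-fold lower, 6 higher at all and 20 lower (median -0.17, against -0.04 for all genes). Of all genes tested 0.571% were at least 2-fold higher and 55.2% lower by any amount. Sgk1, a serum- and glucocorticoid-regulated kinase of ion transport and cell survival, had 994 UMIs in control and 1855 in GC, or 489.8 (interval 460 to 521) and 996 (951 to 1042) CPM, a log2 ratio of 1.02 (0.91 to 1.14). Its median over barcodes was 173 in control and 445 in GC, with quartiles of 63.3 to 688 and 57.4 to 1039, so the libraries overlapped widely. Sgk1 was low in group 3 (99.5 and 83.1) and high in group 4 in both libraries (1842 and 1628), and it was higher in GC in group 1 (601 and 1510), group 2 (309 and 516) and group 5 (49.6 and 216). Mt2 had 269 (247 to 293) and 546 (513 to 581) CPM, and Mt1 597 (564 to 631) and 1085 (1038 to 1133), log2 ratios of 1.01 and 0.86. These metallothioneins bind zinc and copper. Mt2 was higher in GC in each of the 5 groups, for instance 343 and 685 in group 1 and 264 and 583 in group 2. Sgk1 and Mt2 lay just past 2-fold, and neither passed it with 20 CPM in place of 5 added to both levels. Other listed targets did not pass 2-fold. Fkbp5, the receptor's co-chaperone, had 24.1 (17.9 to 31.9) and 29.5 (22.2 to 38.4) CPM, Tsc22d3, or GILZ, 70.5 (59.4 to 83.0) and 65.0 (53.9 to 77.6), Per1, a clock gene, 40.4 and 22.5 and Dusp1, a phosphatase of MAP kinases, 448 and 319. Nr3c1, the receptor itself, stood at 119.8 (105 to 136) and 139.6 (123 to 158). Hsd11b1, which reactivates cortisone and prednisone, had 11 and 6 UMIs.

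Sgk1 and Mt1 were also higher in GC outside the members. In chondrocytes Sgk1 had 486 and 755 and Mt1 1365 and 1752 CPM, and in B cells Sgk1 had 169 and 335 and Mt1 554 and 859. Mt2 had 486 and 523 in chondrocytes and 153 and 222 in B cells. The promoter windows of these genes are shown because they are the targets with the highest ratios. A window reaches from upstream of a RefSeq transcript start to just past it, on the GRCm38.p6 assembly. The full consensus palindrome of the glucocorticoid response element, AGAACA and TGTTCT with any 3 bases between them, reads the same on either strand and lies in 3 of 32851 such windows, or 0.00913%. RefSeq gives 6 windows for Sgk1, and 1 of them holds it, at chr10:21993640-21993939 on the plus strand, within the gene (chromosome 10, 21882184 to 21999903 in GENCODE M21). It is printed with the palindrome in capitals.
Sgk1: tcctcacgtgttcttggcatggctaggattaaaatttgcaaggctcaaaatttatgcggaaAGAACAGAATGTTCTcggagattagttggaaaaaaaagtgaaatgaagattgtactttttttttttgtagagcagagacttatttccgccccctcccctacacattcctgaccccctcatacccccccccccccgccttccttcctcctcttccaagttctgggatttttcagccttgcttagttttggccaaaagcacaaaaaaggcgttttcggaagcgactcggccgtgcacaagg
The counts add up all transcripts of a gene and do not show which of these starts was in use. Of the 32 listed targets, 28 matched the table with 41 windows, and Sgk1 was the only one with the palindrome in a window. For Mt1 and Mt2, which lie next to each other on chromosome 8, the capitals mark matches on either strand to TGCACNC or TGCGCNC, the core of the metal response element. The windows are chr8:94178839-94179138 for Mt1 and chr8:94172368-94172667 for Mt2, both on the plus strand.
Mt1: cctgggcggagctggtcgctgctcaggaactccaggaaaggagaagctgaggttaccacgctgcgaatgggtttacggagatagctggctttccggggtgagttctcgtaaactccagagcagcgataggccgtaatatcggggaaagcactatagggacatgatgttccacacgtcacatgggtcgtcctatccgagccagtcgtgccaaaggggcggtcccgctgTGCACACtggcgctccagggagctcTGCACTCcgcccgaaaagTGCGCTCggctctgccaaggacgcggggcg
Mt2: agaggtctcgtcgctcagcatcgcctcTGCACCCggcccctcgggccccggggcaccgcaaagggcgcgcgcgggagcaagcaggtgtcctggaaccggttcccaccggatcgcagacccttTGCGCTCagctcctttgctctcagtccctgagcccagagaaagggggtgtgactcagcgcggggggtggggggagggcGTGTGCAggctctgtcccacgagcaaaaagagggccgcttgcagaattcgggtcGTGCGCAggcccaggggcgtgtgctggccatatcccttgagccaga
The Mt1 window had 3 matches and the Mt2 window 4, in a setting where 25.7% of all windows held at least 1. A match is a run of letters and not a measured binding site.

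Slc38a2, a transporter of neutral amino acids, was higher in GC at each quartile of the barcodes. Slc38a2 had 413 (385 to 442) CPM in control and 950.2 (906 to 995) in GC, a log2 ratio of 1.19. It was found in 102 of 106 and 111 of 113 members, its median over barcodes was 347 and 774, and its upper quartile in control (612) lay below the GC median. All 5 groups had more of it in GC, from 228 and 707 in group 5 to 692 and 1728 in group 4. This was not particular to these cells, since B cells had 485 and 1392 and chondrocytes 216 and 616. Lmo4, a LIM domain cofactor of transcription, had 136 and 290.4 CPM in members, 201 and 461 in chondrocytes and 144 and 199.8 in B cells. Myadm had 82.3 and 205, and Rdh10, which makes the retinoic acid precursor retinal, 23.2 and 62.8. Of the 41 genes at least 2-fold higher in members, 32 were higher in GC in chondrocytes too, 7 of them at least 2-fold, and 26 in B cells, 8 of them at least 2-fold. Of all genes tested, 57.0% were higher in GC in chondrocytes (0.293% at least 2-fold) and 39.1% in B cells (1.11%). Of the 63 lower genes, 50 were lower in chondrocytes, 15 of them at least 2-fold, and 43 in B cells, 20 of them at least 2-fold, beside 42.9% (1.03%) and 60.7% (3.22%) of all genes tested. The classes come from the same libraries and share their free RNA.

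**Figure D4:**
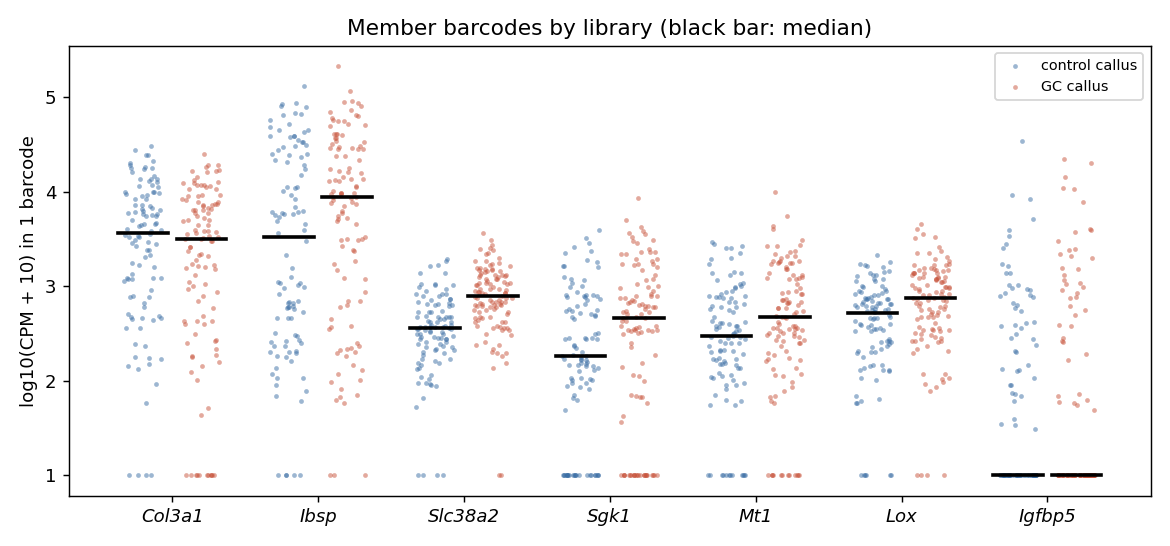
Level of 7 genes in each member barcode, as log10 of CPM plus 10, for control (blue) and GC (red), with the median as a black bar; points at 1 have no UMI. The GC medians of Slc38a2 (774 against 347), Ibsp (8649 against 3326) and Sgk1 (445 against 173) lie above those of control, and the clouds overlap for every gene.

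Of 17 fibrillar and associated collagens, 3 of them (Col1a1, Col1a2 and Col3a1) used by the rule, none was 2-fold higher and 1 was 2-fold lower in GC, beside 0.878% of all genes tested, and the median log2 ratio was 0.14. Without those genes, a choice made after seeing the data, 9 of 14 were higher, beside 44.8% of all genes tested, with a median of 0.11. With at least 2 Pdgfra UMIs asked for, the median of the 17 turned to -0.25. Col5a1, which sets fibril width, had 1193 and 1456 and Col6a2, of the pericellular matrix, 988 and 1256 CPM. Col4a1, a basement membrane collagen, had 117 and 46.7, but 193 of its 237 control UMIs came from 1 barcode, and without the highest barcode of each library its log2 ratio was -0.03. Without barcodes with 3 or more UMIs of G2 and M phase genes, Col4a1 turned to 1.57. Of 22 collagen processing and crosslinking enzymes tested, 0 passed 2-fold in either direction (median 0.04). The highest ratio there was that of Lox, lysyl oxidase, which crosslinks collagen, with 609.6 (576 to 645) and 1018 (973 to 1065) CPM, a log2 ratio of 0.74 (0.64 to 0.84). Its median over barcodes was 505 and 738, all 5 groups had more of it in GC, and chondrocytes had 401 and 752. Loxl2 had 160.2 and 259 and Loxl1, which acts on elastic fibers, 189 and 103. The 8 small leucine-rich proteoglycans tested had a median of 0.01 with none past 2-fold. Of 22 matricellular and elastic fiber genes, 1 was at least 2-fold higher and 17 were lower (median -0.22), beside 0.571% and 55.2% of all genes tested. The higher gene was Vcan, or versican, a large proteoglycan, with 95.1 and 206 CPM. Of 26 matrix proteases and inhibitors 19 were lower, beside the same 55.2%, and none passed 2-fold (median -0.18). Mmp13, the collagenase of remodeling callus, had 1754 and 1409 CPM, and a UMI in 81 of 106 control but 53 of 113 GC members.

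Of 16 osteogenic genes, 0 were 2-fold higher and 1 was 2-fold lower (median -0.03), beside 0.571% and 0.878% of all genes tested. Without Bglap and Bglap2, which the rule capped, the median of the other 14 was 0.07. The group held genes with opposite differences. Ibsp had a log2 ratio of 0.65 (0.63 to 0.67), Smpd3, a sphingomyelinase needed for mineralization, one of 0.54 (483 and 703 CPM) and Alpl one of 0.50, whereas Runx2 had -0.38 (-0.58 to -0.20), Sp7 -0.51 (-0.80 to -0.27) and Ifitm5 -0.53. For Ibsp 1 barcode held 9523 of the 49469 GC UMIs, and without the highest barcode of each library the log2 ratio was 0.46. Its level by group was 14391 and 23720 in group 1, 1756 and 1576 in group 2, 51498 and 107386 in group 3, 11050 and 19097 in group 4 and 34696 and 22252 in group 5, so the order of the libraries was not the same in all groups. Ibsp was also higher in GC in chondrocytes (5374 and 12582) and in B cells (1354 and 3969). Dmp1 was the osteogenic gene past 2-fold, with 622 (588 to 657) and 298 (274 to 324) CPM, in 22 control and 24 GC members, and its log2 ratio was -1.05 (-1.60 without the highest barcode of each library). The lower Dmp1 lay in groups 1 (1033 and 598) and 4 (2540 and 81.2), while group 3 had 119 and 431. Of 14 skeletal transcription factors tested none passed 2-fold (median -0.01), and Sox9 had a log2 ratio of 0.05 (-0.05 to 0.15).

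Of 16 cartilage genes, 4 were at least 2-fold lower in GC and 12 lower at all (median -0.21), beside 0.878% and 55.2% of all genes tested. Col2a1 and Acan, which the rule capped, are among the 16, and without them 10 of 14 were lower, with the same median. After thinning, which left 10 of the genes, the median was 0.02. The 4 were Cnmd, or chondromodulin, with 85.7 and 30.1 CPM, Matn3 with 99.0 and 36.5, and the type IX collagens Col9a2 with 372 and 169.6 and Col9a3 with 309 and 144. Each of them was more abundant in B cells than in members, and lower in GC there as well. B cells had Cnmd at 200.5 and 65.9, Matn3 at 476 and 134, Col9a2 at 959 and 311 and Col9a3 at 805 and 273 CPM. The median log2 ratio of the cartilage list was -1.10 in B cells and -0.31 in chondrocytes. The part of free cartilage RNA in the members' difference was not tested. Comp (log2 ratio 0.14) and Sox9 (0.05), which members had above B cells, did not pass 2-fold.

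Of 19 tested genes of the PDGF, FGF and IGF pathways, 2 were at least 2-fold higher, Igfbp5 and Igf2, and 12 were lower at all (median -0.21), beside 0.571% and 55.2% of all genes tested. Igfbp5, which binds insulin-like growth factors, had 447 (418 to 477) and 1010.3 (965 to 1057) CPM, in 51 control and 43 GC members, and 1 barcode held 553 of the 1882 GC UMIs. Without the highest barcode of each library its log2 ratio was 1.13 (1.17 with it). Most Igfbp5 was in group 2, at 1107 in control and 4082 in GC, and B cells had 64.0 and 7.76. Igf1 had 224 (204 to 246) and 419 (389.9 to 449) in all members and 676 and 1698 in group 2, from 41 and 32 barcodes. Igf2 had 47.3 and 114 in members, in 16 control and 17 GC members, and 144 and 343 in group 2. Sfrp2, a secreted Wnt modulator, had 168 and 422 and Tnmd, a tendon membrane protein, 207 and 695 in group 2. Igfbp3, in contrast, had 66.5 and 31.1 in members, a log2 ratio of -0.99. In group 2 Igfbp3 had 109 and 36.0. In chondrocytes Igf1 had 52.6 and 31.5 CPM. Of the receptors Pdgfra, used by the rule, and Fgfr1 had log2 ratios of -0.22 and -0.13.

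The remaining signaling lists had medians on both sides of the -0.04 of all genes. Of 23 TGF-beta and activin genes 0 passed 2-fold (median -0.001). Of 14 BMP and GDF genes 6 were higher and 8 lower, beside 44.8% and 55.2% of all genes tested, and 1 was at least 2-fold lower, beside 0.878%. This was Id1, an inhibitor of differentiation induced by BMP signaling, with 388 (361 to 416) and 180.4 (162 to 201) CPM, while Id2 and Id3 had log2 ratios of -0.11 and -0.09. Of 19 Wnt genes none passed 2-fold (median 0.17), nor did any of 10 hedgehog, PTHrP and Notch genes (median 0.14). Within the last list Hes1, a Notch target, had 294 and 519 CPM and a median over barcodes of 103 and 308. Of the niche factors, Tnfrsf11b, the decoy receptor of RANKL, had 72.4 (61.2 to 85.1) and 123 (108 to 140), and Tnfsf11, or RANKL, 56.7 (46.8 to 68.0) and 38.1 (29.8 to 48.1). Cxcl12, a chemokine of hematopoietic niches, had 33.5 and 59.6, in 24 and 27 members, with 46 of its 111 GC UMIs in 1 barcode.

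Ccl2 had the lowest ratio of the 7175 genes tested, but its UMIs came from few cells. Of 18 inflammatory and chemokine genes, 4 were at least 2-fold lower, beside 0.878% of all genes tested, and 0 at least 2-fold higher. By any amount 10 were higher and 8 lower, beside 44.8% and 55.2% of all genes tested. The median was 0.07 and turned to -0.22 without the highest barcode of each gene in each library. Ccl2, which attracts monocytes, had 319 UMIs in control and 6 in GC, 157 (140 to 175) and 3.22 (1.18 to 7.01) CPM. The control UMIs lay in 8 of 106 members, 180 of them in 1, and the GC UMIs in 5 of 113. Ccl7, its neighbor in the same chemokine cluster, had 84 UMIs in 10 members and 2 UMIs in 2, a log2 ratio without the added 5 between -8.34 and -3.37. Cxcl1, a neutrophil chemokine, had 152 (135 to 169.7) and 32.7 (25.05 to 42.1) CPM, in 24 and 15 members, and Cxcl2 82.8 and 26.8, in 38 and 13. Chondrocytes had Cxcl1 at 202 and 26.9 and Cxcl2 at 141 and 20.97, also lower in GC. Ptgs2, the inducible cyclooxygenase that glucocorticoids are known to repress, was not lower, with 599 (566 to 633) and 842 (801 to 885), although its median over barcodes was 123 and 94.9. S100a8 and S100a9, granulocyte proteins, had 166 and 23.6 and 162 and 15.6, and 1 control barcode held 272 of the 337 and 265 of the 328 UMIs. B cells had S100a8 at 442 and 927 CPM. F13a1, which is also known from macrophages, had 51.2 and 154, and Cd74, of antigen-presenting cells, 13.3 and 52.1, with 53 of its 97 GC UMIs in 1 barcode. Prg4, or lubricin, had 28.1 and 122, with 128 of its 228 GC UMIs in 1 barcode, and its log2 ratio of 1.94 turned to -0.31 with Col2a1 and Acan under 0.5%.

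Of 24 dissociation stress and immediate early genes 20 were lower in GC, 2 of them at least 2-fold (median -0.23), beside 55.2% and 0.878% of all genes tested. These were the heat shock genes Hspa1a, with 104 (90.9 to 119.5) and 24.2 (17.6 to 32.3) CPM, and Hspa1b, with 129 and 38.7. Jun had 1038 and 637 and Klf2 577 and 323. Such genes respond to the digestion of the tissue, and handling cannot be told apart from treatment with 1 library per group. Hspa1a was lower in GC in B cells (30.6 and 1.94) but not in chondrocytes (14.8 and 21.5).

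Of 18 glycolysis genes 16 were lower in GC and 1 passed 2-fold, a median of -0.35 against -0.04 for all genes, of which 55.2% were lower and 0.878% at least 2-fold lower. After thinning to 1000 UMIs, which left 5 of the genes, the median was -0.05. The gene past 2-fold was Pdk1, a kinase that inhibits pyruvate dehydrogenase, with 45.8 (37.0 to 56.1) and 18.8 (13.1 to 26.1) CPM. Slc2a1, the glucose transporter GLUT1, had 119 and 62.3, and Pgam1, a glycolytic mutase, 339.5 and 197. Hilpda, a lipid droplet protein induced by hypoxia, had 234 (213 to 256) and 78.9 (66.7 to 92.8), a log2 ratio of -1.51, and was lower in chondrocytes (600.0 and 203) and B cells (149 and 37.8) too. The glycolysis list had medians of -0.21 in chondrocytes and -0.23 in B cells. Of 15 fatty acid uptake and oxidation genes, 1 was 2-fold lower, beside 0.878% of all genes tested. This was Fabp5, a fatty acid binding protein, with 129 and 46.7 CPM, and the median of the list was 0.09. The 16 cholesterol and fatty acid synthesis genes had a median of 0.045 and the 19 genes of the ER folding list one of 0.02, with none past 2-fold in either. The 6 adipogenic genes tested were led by Cebpb and had a median of -0.56, with 2 higher, 4 lower, where 55.2% of all genes tested were lower, and none past 2-fold. Adipoq, an adipocyte hormone gene, had 2 UMIs in control and 0 in GC, and Plin1 and Cfd were at 0 in both.

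Among the genes with the highest ratios were the transcripts AY036118, with 112 (98.2 to 128) CPM in control and 359 (332 to 387) in GC, and Gm26917, with 231 (211 to 253) and 673 (636 to 711). They lie close together on chromosome 17, at 39847113 to 39848035 and 39843013 to 39846341. Whether they are separate signals was not tested. Both were higher in GC in chondrocytes and B cells too, AY036118 at 96.3 and 219 and at 289 and 779, Gm26917 at 223 and 410.3 and at 453 and 989. At equal depth AY036118 had a UMI in 10.4% and 31.9% of members and in 32% and 65% of B cells, and Gm26917 in 21.7% and 40.7% of members and in 36.2% and 59.3% of B cells. A few ribosomal and mitochondrial genes also differed the same way in members, chondrocytes and B cells. Rps29 had 2062 and 3406 CPM in members, 2613 and 4103 in chondrocytes and 4739 and 9037 in B cells. Rps15, named after its values were seen, had 1421 and 686 in members, 1719.7 and 650.1 in chondrocytes and 2329 and 1025 in B cells. mt-Atp8 had 91.7 and 353 in members, 57.7 and 249.7 in chondrocytes and 118 and 565 in B cells, while mt-Atp6, which overlaps it on the same transcript so that reads of both can be confused, had 5349 and 3087 in members, 3689.5 and 2455 in chondrocytes and 7271 and 5394 in B cells. Of the 23 ribosomal protein genes listed, 18 were lower in GC in members, beside 55.2% of all genes tested, and the median was -0.28 in members, -0.27 in chondrocytes and -0.08 in B cells. Among the 13 mitochondrially encoded genes, 2 were at least 2-fold higher in members and 0 at least 2-fold lower, beside 0.571% and 0.878% of all genes tested. Their medians were -0.08 in members, 0.21 in chondrocytes and 0.32 in B cells. The ribosomal list thus had a negative median in each of these classes and the mitochondrial list did not. The cause was not tested.

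**Figure D5:**
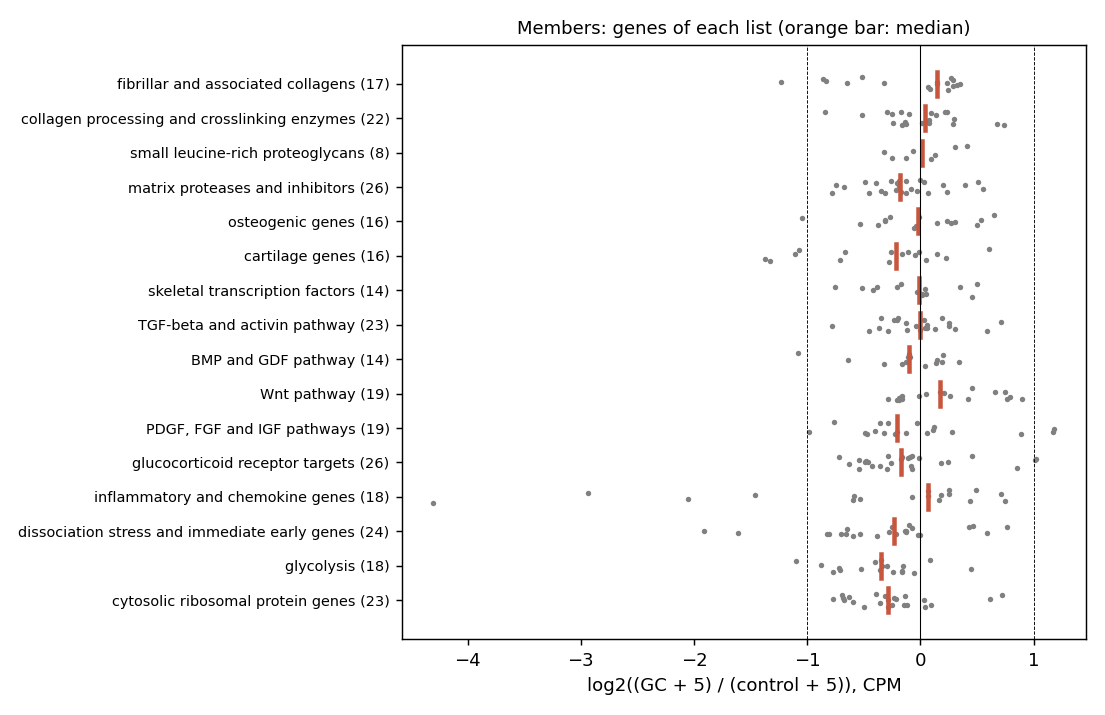
Log2 ratio of GC over control for each tested gene (points) of 16 gene lists in members, with the number of genes tested in brackets, the median of each list as an orange bar and the 2-fold limits dashed. The medians lie between -0.35 (glycolysis) and 0.17 (Wnt pathway), and 4 chemokine genes lie far to the left.

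Genes of the cell cycle were found in both libraries. At least 3 UMIs of the S phase genes were found in 68 control members (64.2%, 54.3% to 73.2%) and 63 GC members (55.8%, 46.1% to 65.1%). Of the members, 25 in control (23.6%, 15.9% to 32.8%) and 19 in GC (16.8%, 10.4% to 25%) had at least 3 UMIs of the 23 genes of G2 and M phase. Their summed level was 298 and 278 CPM, of which 1 barcode gave 42.6% in control and 50.4% in GC. The S phase genes summed to 336 and 252 in members, 293 and 239 in chondrocytes and 906 and 522 in B cells. The cuts at 3 UMIs were not scaled to depth, and members had medians of 15064 and 14295 UMIs. They therefore do not give the share of cells in a phase.

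In trabecular bone the rule found 1 of 3977 barcodes past the quality limits in control (0.0251%, 0.000637% to 0.14%) and 2 of 4788 in GC (0.0418%, 0.00506% to 0.151%). The control barcode had 16 Pdgfra, 161 Col3a1 and 288 Dcn UMIs among 11033, with no Ibsp or Sox9. Of the GC barcodes, one had 3923 Col1a1, no Col3a1 and 274 Ibsp UMIs among 25793, and the other 47 Col1a1 and 46 Col3a1 UMIs among 6343. With so few barcodes no comparison between treatments was made for this tissue.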

How the data were processed

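Single-cell libraries of fracture callus and trabecular bone were prepared with a 10x Genomics kit by the authors. The deposited matrices hold unnormalized counts of UMIs per gene and barcode. The submitters' processing notes name Cell Ranger 5.0.1, Seurat 3.2.0 and mm10, whereas the headers of the matrices name an earlier Cell Ranger release. Barcodes under 500 UMIs had been left out of the GC callus matrix, while the others held every barcode. The callus libraries held 95852254 UMIs (control) and 64388215 (GC), and their barcodes were compared as deposited.

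Members were found by the stated rule. UMIs were summed over members and scaled to CPM, with exact Poisson intervals. Log2 ratios had 5 CPM added to each side and were kept for genes of 50 UMIs or more in the sum of the libraries. Their intervals are exact conditional ones for a pair of Poisson counts, without the added 5. Shares have Clopper-Pearson intervals, at 95% throughout. For shares, barcodes were thinned to 1000 UMIs, which left out no member and 13 control and 8 GC B cells. B cells had at least 2 UMIs of Cd79a and Cd79b together and no Pdgfra UMI. Members were clustered with leidenalg 0.10.2 on 1500 variable genes, 15 components and 15 neighbors at resolution 0.6, without the rule's genes, most of the listed genes, or mitochondrial and ribosomal genes. The scripts ran in Python, numpy and scipy, and the ratio, its interval and the clustering were tested on simulated data. No doublets were removed; members without an immune or endothelial UMI were an alternative, beside other limits, scalings, pseudocounts, minimum counts, thinning and clustering settings. No model was fitted, since a group holds 1 library.

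The members and the gene lists were chosen with earlier results of these data known. Genes named are the series' markers, all genes of the lists, the 15 highest and 15 lowest ratios among genes of at least 50 CPM in 1 library (mitochondrial, hemoglobin and immunoglobulin genes left out) and the 10 leading genes of each cluster of at least 100 CPM. Markers of a list were counted for a cluster at 2-fold over the other members in at least 10% of its barcodes, and no cluster was named, since each carried markers of several lists or leading genes that went against a name. Gene positions are those of GENCODE M21 (GRCm38). A few genes that these rules would name are not reported here.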

Additional observations from a re-analysis of the deposited data

How the results depend on the processing

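The share of members (1.49% in control and 1.54% in GC) followed each limit. It was 2.17% and 2.32% with at least 2000 UMIs, 1.18% and 1.16% with a collagen share of at least 4%, 1.16% and 1.26% with Col2a1 and Acan under 0.5%, 1.01% and 0.957% with at least 2 Pdgfra UMIs, 2.27% and 2.6% with no Pdgfra UMI asked for, and 2.37% and 2.1% among barcodes without a Ptprc, Cd79a, Cd79b or Pecam1 UMI. The counts of genes at least 2-fold higher and lower (41 and 63) became 75 and 104 with 1 CPM added, 13 and 23 with 20 added, 68 and 126 at a minimum of 1 UMI, 19 and 25 at 200 UMIs, 9 and 10 after thinning (585 genes tested), and 9 and 9 without genes at 20% or more of the members' level in B cells (494 tested). The higher count was 65 without barcodes with 3 or more G2 and M phase UMIs, 68 with the mean over barcodes and 81 with equal weight per group of cells, of which 27, 28 and 32 were among the 41. The lower count was 96 with at least 2 Pdgfra UMIs, of which 41 were among the 63. Without barcodes with 3 or more G2 and M phase UMIs it was 61, of which 27 were among the 63. Where barcodes with a Ptprc, Cd79a, Cd79b or Pecam1 UMI were left out, the counts were 36 and 67. Only 18 and 37 of these were among the 41 and 63.

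List medians moved as well. The inflammatory list had -0.72 with Col2a1 and Acan under 0.5% and 0.75 without the B-cell genes, which left 1 of its genes. Fibrillar collagens had -0.25 with at least 2 Pdgfra UMIs and 0.32 without immune or endothelial UMIs. The osteogenic list had 0.15 without those barcodes, -0.31 without the B-cell genes and -0.12 with equal weight. Immediate early genes had -0.46 without G2 and M phase barcodes, cartilage 0.02 (10 genes) and glycolysis -0.05 (5 genes) after thinning, and glucocorticoid receptor targets -0.54 without the B-cell genes, again from 1 gene. Prg4 turned to -0.31 with Col2a1 and Acan under 0.5%, and Col4a1 to 1.57 without G2 and M phase barcodes. Clustering gave 3 groups at resolution 0.3, 7 at resolution 1 and 4 with 25 components. The cause of these shifts was not tested. No paired analysis was possible because each group holds 1 library and no test was run.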
